A study of Mus musculus with 15 samples.

Results

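The comparison described here set 3 libraries of irradiated Atm+/+ mouse lung fibroblasts against 3 libraries of unirradiated Atm+/+ lung fibroblasts at passage 2, which are 6 of the 15 RNA-seq libraries of the study. The libraries were chosen by their labels alone, and no measured value entered the choice. The study made primary lung fibroblast strains from C57BL/6 mice that were Atm+/+ or Atm-/-, with 3 strains per genotype, and sequenced RNA at passage 2 and at passage 8. Atm encodes a protein kinase that reports broken DNA, and irradiated Atm+/+ cells served in the design as the reference for premature senescence brought on by stress. The irradiated cells carried the label passage 2, received 10 Gy of X-rays at 0.5 Gy per minute in a cabinet irradiator and were collected 10 days after the dose. The unirradiated cells carried the label of no treatment. Both groups were primary cells kept in medium with 15% fetal bovine serum at 3% oxygen, and both had the same genotype and strain background. The labels do not state whether the unirradiated cells were mock-treated or stayed in culture for the same days, so the dose and the added time in culture cannot be told apart. The age and sex of the mice are not given in the labels, and the labels do not say which irradiated and unirradiated libraries came from the same fibroblast strain. Unirradiated Atm+/+ cells at passage 8, also 3 libraries, were used as a second point of comparison.

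Ionising radiation breaks both strands of DNA, and ATM and related kinases then stabilise the transcription factor p53. Among the genes that p53 switches on is Cdkn1a, whose product p21 blocks the cyclin-dependent kinases that drive the cell cycle, so that cells with lasting damage can enter a permanent arrest called senescence. Senescent fibroblasts are known to lose the proteins of cell division, to flatten and build contractile fibres, and to secrete growth factors, proteases and cytokines, a set known as the senescence-associated secretory phenotype. They can also switch on interferon-stimulated genes when DNA or RNA reaches the cytosol.

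Levels are counts per M counts (CPM, M for mega) with TMM normalisation, given for replicates 1, 2 and 3 in this order. Fold changes are irradiated over unirradiated on the log2 scale with a standard error (SE), and a gene was said to rise or fall where edgeR's quasi-likelihood test gave a Benjamini-Hochberg adjusted p under 0.05 over all genes tested. The irradiated libraries held 37.6, 39.2 and 34.1 M counts and the unirradiated ones 33, 34.2 and 23.6 M. Unirradiated replicate 3 stood apart from the other libraries. Thinned to 23605046 counts it showed 17526 genes, against 21153 and 22075 in the other unirradiated libraries and 22967 to 23382 in the irradiated ones. Among 9657 genes whose median level reached 10 CPM, 138 lay under 0.1 of that median in unirradiated replicate 3 and at most 5 did in each of the other 5 libraries. Correlations of log2 CPM across genes were 0.9942 to 0.9966 among irradiated replicates, and 0.9308 between unirradiated replicates 2 and 3. Mitochondrially encoded genes took 1.55% to 1.73% of the counts in irradiated libraries and 0.981% to 1.29% in unirradiated ones. The counts of gene groups below are therefore also given without unirradiated replicate 3.

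At 10 days after irradiation 2003 of 18167 genes tested were higher (11.0%) and 2995 were lower (16.5%), with edgeR's quasi-likelihood test. The change was at least 2-fold for 1145 of the higher genes (6.30% of those tested) and 1777 of the lower ones (9.78%). In all, 4998 genes passed (27.5%), and the levels of 9991 genes did not overlap between the groups (55.0%). When unirradiated replicate 3 was left out, 1732 genes were higher (9.34%) and 1799 were lower (9.70%), 3531 of 18544 tested (19.0%). All 4998 genes had the same sign without that library, and 3191 of them passed again in the same direction, 1532 higher and 1659 lower. Of the calls, 40.1% were higher. On log2(TPM + 1) values, where the scale, the test and the filter all differ, limma called 4062 genes higher and 1592 lower (71.8% higher), and the median log2 fold change over all genes was 0.32 against -0.01. With DESeq2's size factors in the same edgeR fit 43.2% of calls were higher, and with 1 library left out 36.4% to 52.4%. Directions below are relative to TMM scaling, and counts of called members are given as shares beside the 11.0% of all genes that rose and the 16.5% that fell. The gene lists and their members were chosen with earlier results of these data known, so these shares describe the lists and are not independent tests.

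**Figure D1:**
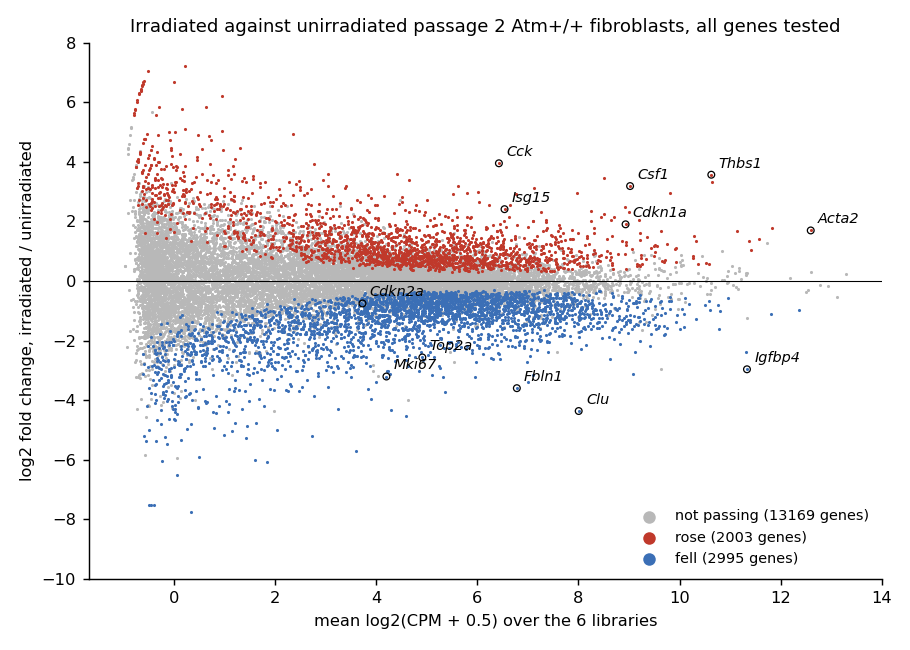
Each point is 1 of 18167 genes, with the mean log2(CPM + 0.5) over the 3 irradiated and 3 unirradiated libraries on the x axis and the log2 fold change, irradiated over unirradiated passage 2, on the y axis; red genes rose (2003), blue genes fell (2995) and grey genes did not pass. Cck, Thbs1 and Csf1 lie among the highest points at high expression, and Clu, Fbln1 and Igfbp4 among the lowest.

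The 15 largest increases were taken by rule among genes with a mean log2 CPM of 2 or more. The rule also asked that a gene pass with and without unirradiated replicate 3 and not overlap between the groups. Separation of the groups was thus a condition of the choice. Thbs1 (ENSMUSG00000040152.8, chr2:118111876-118127133, GRCm38), which encodes the matrix glycoprotein thrombospondin-1, was at 6110, 4754 and 5896 CPM after irradiation and at 460, 653 and 301 CPM without it. The lowest irradiated value lay far above the highest unirradiated one. The log2 fold change was 3.57 (SE 0.31, adjusted p = 1.2e-05). F3, the cell-surface trigger of blood clotting known as tissue factor, went from 133, 187 and 40 CPM to 1421, 1124 and 1422 CPM, a change of 3.46 (SE 0.51, adjusted p = 5.4e-04). Its lowest unirradiated value was that of replicate 3, and the log2 change without that library was 3.11. Csf1, the growth factor of macrophages, stood at 1716, 1328 and 1704 CPM against 183, 134 and 205 CPM, a change of 3.19 (SE 0.22, adjusted p = 2.9e-06). Cck, the gene of the peptide hormone cholecystokinin, stood at 328, 324 and 377 CPM against 26.3, 13.1 and 27.3 CPM, a change of 3.95 (SE 0.42, adjusted p = 5.5e-05). The cytoskeletal gene Vcl (vinculin, which links adhesion sites to actin) changed by 3.61, and the skeletal muscle actin gene Acta1 by 3.19. Tnfrsf11b, which encodes the decoy receptor osteoprotegerin, was at 25.9, 29.8 and 19.6 CPM after irradiation and at 0.434, 1.89 and 0 CPM without it, with a fitted log2 change of 4.93. Others of the 15 were Ston1, Fstl3, Gvin1, Gzmd, Gdf6, Irgm1 and Ifit3b, with log2 changes between 3.17 and 3.58.

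The 15 largest decreases were taken by the same rule, so separation of the groups was again a condition of the choice. Fbln1, the matrix protein fibulin-1, went from 414, 269 and 488 CPM to 32.6, 23.8 and 40.1 CPM, a change of -3.6 (SE 0.28, adjusted p = 6.2e-06). Every irradiated value lay far below every unirradiated value. Atp1b2, a beta subunit of the sodium pump, changed by -3.55 (SE 0.59, adjusted p = 0.001). Mxd3, a MYC network repressor gene, went from 16.1, 16 and 18.5 CPM to 1.45, 1.13 and 1.73 CPM, a change of -3.55 (SE 0.23, adjusted p = 1.5e-06). Ces1d and Ces1g, both carboxylesterases, changed by -5.2 and -3.52. Rspo1, a secreted enhancer of Wnt signalling, changed by -3.71, and the apolipoprotein gene Apoc1 by -3.96. Others were Itih3, Lrg1, Clu, Wfdc21, Nup210, Fmo1 and Ephb1, with log2 changes between -5.0 and -3.47.

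Targets of p53 were mostly higher after irradiation. Of 45 members tested 25 rose (55.6%, against 11.0% of all genes), 4 fell (8.89%, against 16.5%) and 16 did not pass, and their median log2 fold change was 0.84 against -0.01 over all genes. With unirradiated replicate 3 left out, 20 rose and 1 fell. Cdkn1a (ENSMUSG00000023067.13, chr17:29090976-29100727) was at 1008, 924 and 899 CPM in irradiated cells and 269, 247 and 242 CPM in unirradiated cells. The 3 irradiated values lay close together and far above the 3 unirradiated ones. The log2 change was 1.9 (SE 0.13, adjusted p = 2.9e-06). Mdm2, the ubiquitin ligase that degrades p53 and is itself its target, went from 42.4, 45.4 and 47.4 CPM to 128, 127 and 133 CPM, a change of 1.52 (SE 0.22, adjusted p = 5.3e-04). Ccng1, cyclin G1, went from 75.3, 83.6 and 46.2 CPM to 270, 285 and 281 CPM, a change of 2.03 (SE 0.22, adjusted p = 7.1e-05). Pmaip1, the pro-death gene Noxa, went from 3.35, 3.78 and 1.31 CPM to 16.8, 17.4 and 17 CPM, a change of 2.58 (SE 0.34, adjusted p = 2.5e-04). The stress cytokine gene Gdf15 changed by 1.7 (SE 0.41, adjusted p = 0.010), the kinase gene Plk2 by 1.5, the AKT repressor gene Phlda3 by 0.64 and the death receptor gene Tnfrsf10b by 1.26. The ectodysplasin receptor gene Eda2r was at 17, 20.4 and 17.5 CPM against 6.92, 6.82 and 1.69 CPM and changed by 1.82 (SE 0.61, adjusted p = 0.041), which did not pass without unirradiated replicate 3 (adjusted p = 0.10). Members of the list also went the other way. Bax, a pore-forming death gene, was at 164, 164 and 156 CPM against 239, 180 and 303 CPM, a log2 change of -0.58 (SE 0.19, adjusted p = 0.039), and it did not pass without unirradiated replicate 3 (adjusted p = 0.24). The phosphatase gene Ptp4a3 fell from 268, 275 and 284 CPM to 113, 110 and 98 CPM.

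Among p53 and its regulators 1 of 13 rose and 1 fell (7.69% each, against 11.0% and 16.5% of all genes), which is near those shares for so few genes, and neither direction had a call without unirradiated replicate 3. Trp53, which encodes p53, was at 74.4, 69.1 and 74.9 CPM after irradiation and 85.6, 93.8 and 50.7 CPM without it, a log2 change of -0.08 (SE 0.38, adjusted p = 0.89). Atm was at 1.65, 2.01 and 1.4 CPM and 1.12, 0.877 and 3.1 CPM, a change of 0.01 (SE 0.52, adjusted p = 0.99). In both genes unirradiated replicate 3 was the library farthest from the rest, and the groups overlapped. Chek1, the checkpoint kinase of stalled replication, fell by 1.46 on the log2 scale (adjusted p = 0.025) and the adaptor gene Trp53bp1 rose by 0.82 (adjusted p = 0.032).

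Promoter sequence from RefSeq (GRCm38.p6) is shown for the pair of p53 targets with the lowest p in a reference table of promoters, because p53 binds DNA directly. The 250 bases before the annotated start are printed 5′ to 3′ on the gene's strand, with matches to the p53 half-site in capitals, searched on both strands. The Cdkn1a window, chr17:29090729-29090978 on the plus strand, is the first of 2 starts in the table and holds 2 matches. The Ccng1 window, chr11:40755287-40755536 on the minus strand, holds 1 match.
Cdkn1a: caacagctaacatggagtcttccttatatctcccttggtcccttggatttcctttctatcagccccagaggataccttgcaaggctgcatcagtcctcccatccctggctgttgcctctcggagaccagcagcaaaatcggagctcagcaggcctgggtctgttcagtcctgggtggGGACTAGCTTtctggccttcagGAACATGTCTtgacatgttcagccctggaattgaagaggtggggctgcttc
Ccng1: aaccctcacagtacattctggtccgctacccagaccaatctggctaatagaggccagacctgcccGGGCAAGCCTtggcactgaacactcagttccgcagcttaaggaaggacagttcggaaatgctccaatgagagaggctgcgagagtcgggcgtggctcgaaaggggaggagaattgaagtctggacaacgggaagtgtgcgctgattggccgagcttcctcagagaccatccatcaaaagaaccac
The half-site was found in 5 of 20 risen p53 targets with a promoter in the table (25.0%), in 6.00% of the 11663 tested genes with a promoter and in 7.18% of all 27025 promoters of the table. A match is a run of letters and not a measured binding site.

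In the list of cyclin-dependent kinase inhibitors and senescence markers 4 of 23 rose (17.4%), 5 fell (21.7%) and 14 did not pass, shares near those of all genes (11.0% and 16.5%), with a median of -0.26 that turned positive on the TPM scale (0.21 against an all-gene median of 0.32). In the fit without unirradiated replicate 3, 3 rose and 4 fell. Cdkn2a, which encodes p16INK4a and p19ARF, was at 8.98, 6.87 and 16.2 CPM after irradiation and 15.4, 9.42 and 29.5 CPM without it. The groups overlapped, the highest value was unirradiated replicate 3, and the change was -0.76 (SE 0.41, adjusted p = 0.18). Cdkn2b, the neighbouring inhibitor p15, was at 16.1, 15.5 and 20 CPM against 12.3, 11.1 and 15.6 CPM, a change of 0.40 (SE 0.20, adjusted p = 0.14). Cdkn1c, the inhibitor p57, fell from 8.47, 6.66 and 8.08 CPM to 1.52, 1.35 and 2.07 CPM, a change of -2.23 (SE 0.66, adjusted p = 0.025). The nuclear lamina gene Lmnb1, known to be lost in senescence, was at 4.44, 6.94 and 5.42 CPM against 14.1, 24.4 and 8.32 CPM. Its groups did not overlap, but the change of -1.48 (SE 0.77) had an adjusted p of 0.17, and of 0.14 without unirradiated replicate 3. The chromatin protein gene Hmgb2 fell from 10.9, 16.9 and 4.74 CPM to 3.72, 3.85 and 3.16 CPM, a change of -1.6 (SE 0.33, adjusted p = 0.004). Glb1, which encodes the lysosomal beta-galactosidase behind a common stain for senescence, was lower after irradiation, at 103, 102 and 113 CPM against 170, 147 and 198 CPM, a change of -0.70 (SE 0.13, adjusted p = 0.002). Its transcript fell in all 3 libraries relative to every unirradiated library.

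Genes of mitosis fell together. Of 40 mitosis and G2/M genes tested, 28 fell (70%, against 16.5% of all genes), none rose (against 11.0%) and 12 did not pass, with a median log2 change of -2.12. Without unirradiated replicate 3, 30 fell and none rose, and none rose in any of the 16 alternative fits. Mki67 (ENSMUSG00000031004.8, chr7:135689784-135716361), the proliferation marker Ki-67, was at 4.78, 7.06 and 5.67 CPM in irradiated cells and 48.3, 56.2 and 57.6 CPM in unirradiated cells. The highest irradiated value was far below the lowest unirradiated one, and the log2 change was -3.21 (SE 0.19, adjusted p = 8.2e-07). Top2a, the topoisomerase that untangles chromosomes, went from 76.9, 87 and 53.7 CPM to 11.5, 12.4 and 12.8 CPM, a change of -2.57 (SE 0.18, adjusted p = 2.9e-06). Cdc20, an activator of the anaphase-promoting complex, went from 26.9, 29 and 34.8 CPM to 4.93, 5.05 and 5.92 CPM, a change of -2.51 (SE 0.19, adjusted p = 4.0e-06). The mitotic kinase gene Cdk1 went from 59.8, 70.7 and 51.4 CPM to 13.3, 15.9 and 16.8 CPM, a change of -1.99 (SE 0.25, adjusted p = 1.9e-04). Its partner cyclin gene Ccnb1 changed by -2.71, the kinase gene Plk1 by -2.11 and the transcription factor gene Foxm1, which drives this programme, by -2.07. The centromere and spindle genes Cenpa, Cenpe, Birc5 and Bub1b changed by -2.75, -2.26, -2.89 and -1.73. The transcripts did not vanish: Top2a stayed above 10 CPM in each irradiated library. In bulk RNA, fewer cells of a type and less RNA per cell cannot be told apart.

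Promoters of the 3 mitosis genes with the lowest p are shown because many genes of this programme share the cell cycle homology region, CHR (TTTGAA), and CCAAT boxes (CCAAT), at which the DREAM complex and NF-Y are known to bind. Both motifs were searched on both strands, do not share letters, and are in capitals, where TTCAAA and ATTGG are their reverse complements. The windows are the 250 bases before the RefSeq start, 5′ to 3′ on the gene's strand, at chr7:135716380-135716629, chr11:99024190-99024439 and chr4:118437344-118437593, all on the minus strand of GRCm38.p6.
Mki67: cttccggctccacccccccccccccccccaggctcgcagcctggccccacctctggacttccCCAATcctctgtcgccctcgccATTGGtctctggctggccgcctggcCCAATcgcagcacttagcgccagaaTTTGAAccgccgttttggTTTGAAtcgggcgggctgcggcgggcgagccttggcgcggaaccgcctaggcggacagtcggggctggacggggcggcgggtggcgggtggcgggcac
Top2a: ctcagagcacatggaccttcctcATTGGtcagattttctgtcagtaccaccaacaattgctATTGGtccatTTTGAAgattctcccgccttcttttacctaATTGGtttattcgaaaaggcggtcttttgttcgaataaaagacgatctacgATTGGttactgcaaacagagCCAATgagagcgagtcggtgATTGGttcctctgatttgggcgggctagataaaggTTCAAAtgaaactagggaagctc
Cdc20: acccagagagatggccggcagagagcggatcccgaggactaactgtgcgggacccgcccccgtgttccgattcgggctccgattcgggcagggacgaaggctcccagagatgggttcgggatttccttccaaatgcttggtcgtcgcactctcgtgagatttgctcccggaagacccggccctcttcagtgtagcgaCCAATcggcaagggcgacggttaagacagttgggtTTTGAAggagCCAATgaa
The Mki67 window holds 2 CHR and 3 CCAAT runs of letters, Top2a 2 and 6, and Cdc20 1 and 2. The CHR letters were in 9 of the 22 fallen mitosis genes with a promoter in the table (40.9%), in 10.8% of tested genes and in 16.3% of all promoters. The CCAAT letters were in 68.2%, 36.1% and 34.5% of the same sets. Among all 32 mitosis genes with a promoter, including those that did not pass, the shares were 28.1% and 68.8%.

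Most DNA replication genes also fell. Of 46 members 29 fell (63%, against 16.5% of all genes), none rose and 17 did not pass, and the median was -1.20. Without unirradiated replicate 3, 29 fell and 1 rose. Lig1, the ligase that joins Okazaki fragments, went from 40.7, 37.8 and 53.1 CPM to 10.5, 11.6 and 12.1 CPM, a change of -1.95 (SE 0.17, adjusted p = 1.2e-05). Mcm6, a subunit of the replicative helicase, went from 52.9, 68.7 and 37.7 CPM to 13.6, 17.6 and 12.8 CPM, a change of -1.86 (SE 0.21, adjusted p = 8.1e-05). The helicase genes Mcm2 and Mcm5 changed by -1.13 and -1.94, the nucleotide synthesis genes Rrm2, Tyms and Dut by -1.52, -1.26 and -1.2, and the single-strand binding protein gene Rpa2 by -1.32. Pcna, the sliding clamp and also a p53 target, was at 23.5, 27.2 and 24 CPM against 36.9, 46.9 and 25.5 CPM. The unirradiated replicate 3 value lay inside the irradiated range, and the change was -0.55 (SE 0.18, adjusted p = 0.036). The transcription factor gene E2f1 was at 43.5, 39.7 and 43.4 CPM against 32.5, 29.9 and 49.5 CPM, a change of 0.18 (SE 0.18, adjusted p = 0.47), and without unirradiated replicate 3 it was 0.50 (adjusted p = 0.027), which makes it the member that rose there. Among genes of double-strand break signalling and repair 7 of 35 fell (20%, near the 16.5% of all genes) and none rose (against 11.0%). Without unirradiated replicate 3, 10 fell. The median was -0.44, and 0.01 on the log2(TPM + 1) scale, where the median over all genes was 0.32. Those that fell included the histone variant gene H2afx, from 49.2, 35.7 and 44.2 CPM to 20.3, 20.7 and 20.3 CPM (-1.07), the helicase gene Rad54l (-2.02), the exonuclease gene Exo1 (-2.27) and the repair gene Brca1 (-1.47).

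Of 13 D-type cyclin and cell cycle entry genes 5 rose (38.5%, against 11.0% of all genes), none fell and 8 did not pass. The same counts held without unirradiated replicate 3, while the median went from 0.43 to 0.16. Ccnd1, cyclin D1, went from 9.0, 15.8 and 8.9 CPM to 52.9, 51.6 and 63.3 CPM, a change of 2.31 (SE 0.28, adjusted p = 1.5e-04), and Ccnd2 from 160, 154 and 163 CPM to 320, 362 and 316 CPM, a change of 1.07 (SE 0.15, adjusted p = 4.9e-04). Cdk6, the kinase that D-type cyclins activate, changed by 0.55. Myc, a driver of growth, was at 45.6, 39.8 and 41.4 CPM against 28.9, 54.1 and 24 CPM and did not pass (adjusted p = 0.64). Of 34 replication-dependent histone genes 15 were under the filter on low counts. Among the 19 tested 11 rose (57.9%, against 11.0% of all genes) and none fell, also without unirradiated replicate 3, and the median was 1.77. Genes that passed the filter only through the group where they are high had to differ, so this count describes those 19 and not the family. The linker histone gene Hist1h1c went from 112, 138 and 76.8 CPM to 381, 382 and 350 CPM, a change of 1.77 (SE 0.19, adjusted p = 7.5e-05). The core histone gene Hist1h2bc went from 64.8, 67.8 and 54.8 CPM to 131, 134 and 131 CPM, a change of 1.08 (SE 0.13, adjusted p = 1.0e-04). Members of the family are near-identical in sequence, and how reads were assigned among them is not given in the sources used here.

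**Figure D2:**
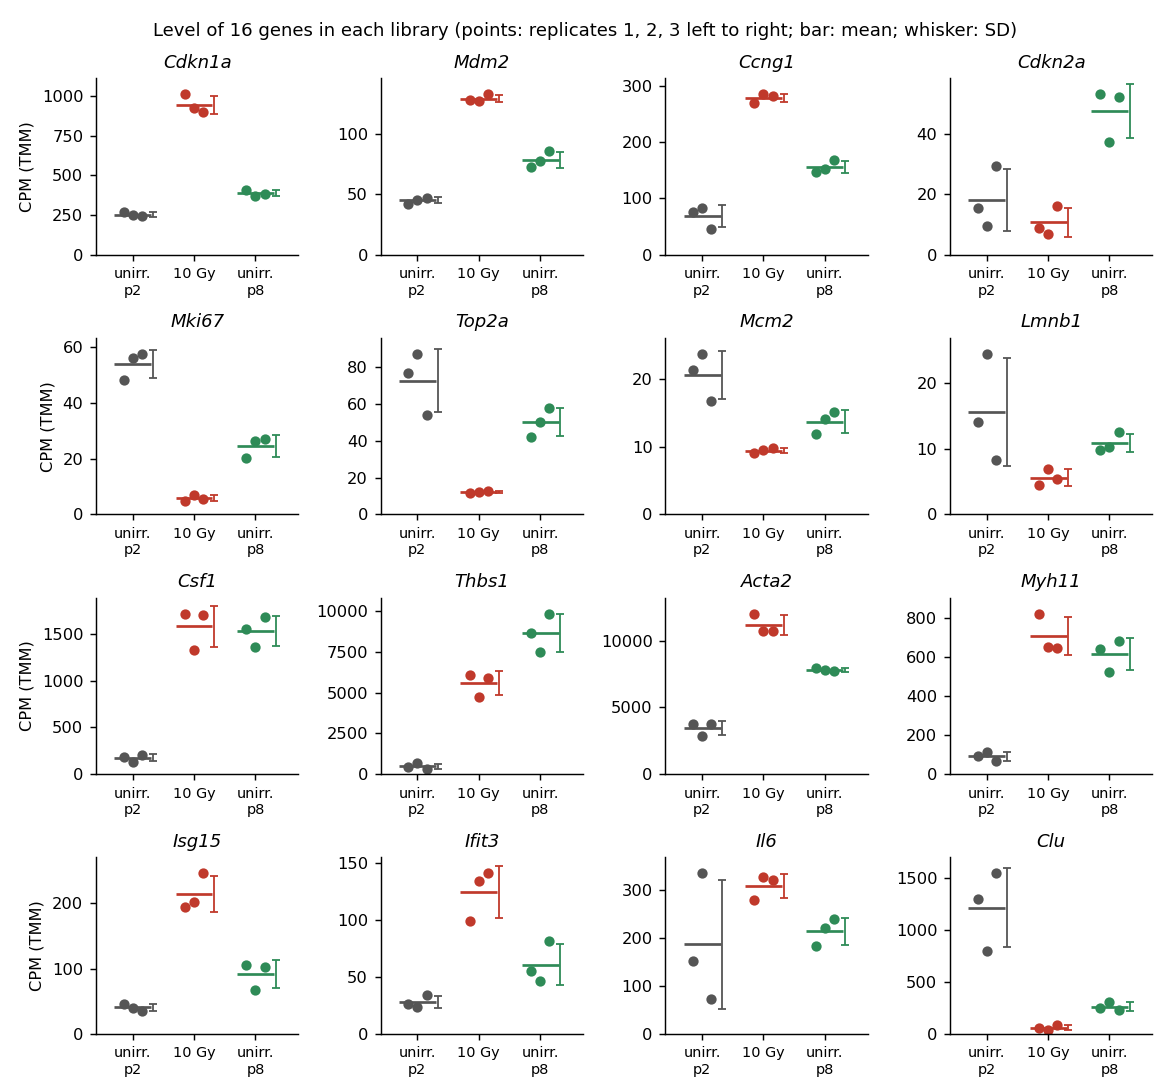
Each panel shows 1 gene's CPM on a linear axis from 0 in the 3 unirradiated passage 2, 3 irradiated and 3 unirradiated passage 8 libraries (points are replicates 1 to 3 from left to right, the bar is the mean and the whisker the SD). For Cdkn1a, Mki67, Csf1, Acta2 and Isg15 the irradiated and unirradiated passage 2 points do not overlap, whereas for Cdkn2a and Il6 they do.

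The secreted genes of the senescence-associated phenotype split. Of 59 tested 21 rose (35.6%, against 11.0% of all genes), 8 fell (13.6%, against 16.5%) and 30 did not pass, with a median of 0.30 against -0.01 over all genes. Without unirradiated replicate 3, 21 rose and 7 fell. Growth factor and protease genes that rose, beside Csf1 above, included Vegfa, the main driver of vessel growth, from 193, 281 and 134 CPM to 903, 841 and 761 CPM, a change of 2.04 (SE 0.26, adjusted p = 2.3e-04). Mmp10, a matrix protease gene, went from 20.8, 36.6 and 13.9 CPM to 196, 160 and 210 CPM, a change of 2.98 (SE 0.38, adjusted p = 2.1e-04). Spp1, osteopontin, went from 334, 369 and 191 CPM to 1234, 892 and 1584 CPM, a change of 2.05 (SE 0.45, adjusted p = 0.006). Fgf2, a fibroblast growth factor gene, changed by 0.98. The cytokine genes Il6 and Ccl2 and the protease gene Mmp3 did not pass. Il6, interleukin-6, was at 280, 327 and 321 CPM against 153, 335 and 72.3 CPM. Its unirradiated values ran from 72.3 to 335 CPM and enclosed all 3 irradiated values, a change of 0.73 (SE 0.50, adjusted p = 0.29). Ccl2, the monocyte chemokine, was at 65.3, 62.6 and 81.8 CPM against 60.9, 81 and 38.9 CPM, a change of 0.21 (SE 0.43, adjusted p = 0.73). Mmp3 was at 874, 735 and 1032 CPM against 1418, 976 and 1880 CPM, a change of -0.69 (SE 0.27, adjusted p = 0.075). Cxcl1, a neutrophil chemokine gene, fell from 20.7, 29.3 and 14.9 CPM to 11.5, 5.38 and 11.9 CPM, a change of -1.17 (SE 0.33, adjusted p = 0.020). Of the insulin-like growth factor binding protein genes, Igfbp4 went from 7630, 6192 and 8061 CPM to 935, 708 and 1157 CPM (-2.97 (SE 0.37, adjusted p = 1.7e-04)) and Igfbp3 from 1147, 1706 and 952 CPM to 295, 459 and 181 CPM (-2.02 (SE 0.49, adjusted p = 0.010)). Igfbp2 of the same family, named after its value was seen, rose by 1.3 (adjusted p = 0.012). The gelatinase gene Mmp9 fell from 183, 186 and 246 CPM to 44.6, 23.6 and 42.9 CPM, a change of -2.47 (SE 0.32, adjusted p = 2.1e-04). The summed level of macrophage markers was 1550 to 2760 CPM after irradiation and 2610 to 4220 CPM without it, ranges that overlap, and the part of those cells in the fall of Mmp9 was not tested.

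Targets of NF-kB, the transcription factor of inflammation, also split. Of 25 tested 5 rose (20%, against 11.0% of all genes) and 7 fell (28%, against 16.5%). The median was -0.19, and 0.24 on the log2(TPM + 1) scale, where the median over all genes was 0.32. Without unirradiated replicate 3, 4 rose and 6 fell. Ptgs2, the prostaglandin synthase COX-2, rose from 13.2, 15.3 and 20.7 CPM to 117, 130 and 127 CPM, a change of 2.93 (SE 0.28, adjusted p = 2.6e-05). Vcam1, a cell adhesion gene, rose from 166, 210 and 121 CPM to 313, 335 and 337 CPM. Sod2, the mitochondrial superoxide dismutase gene, fell from 215, 212 and 190 CPM to 92.4, 98.7 and 96.8 CPM, a change of -1.1 (SE 0.20, adjusted p = 0.002). The feedback inhibitor gene Nfkbie fell by 1.29 on the log2 scale (adjusted p = 0.001), and Tnfaip3, another feedback gene, was at 6.53, 4.84 and 6.29 CPM against 3.07, 5.15 and 2.95 CPM (adjusted p = 0.29).

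Interferon-stimulated genes were higher in irradiated cells. Of 56 tested 36 rose (64.3%, against 11.0% of all genes), 2 fell (3.57%, against 16.5%) and 18 did not pass, with a median of 1.04. In the fit without unirradiated replicate 3, 33 rose and 1 fell. Isg15 (ENSMUSG00000035692.6, chr4:156199424-156200818), a ubiquitin-like protein attached to other proteins during antiviral responses, was at 195, 201 and 246 CPM after irradiation and 45.3, 40.1 and 35.5 CPM without it. The groups did not overlap, and the change was 2.41 (SE 0.23, adjusted p = 2.7e-05). Ifit1, whose product binds foreign RNA, went from 19.6, 13.6 and 28.9 CPM to 73.2, 99.5 and 99.3 CPM, a change of 2.13. Its relative Ifit3 went from 26.3, 23.6 and 33.9 CPM to 98.8, 134 and 141 CPM, a change of 2.16. Ifi44 went from 4.56, 7.07 and 4.6 CPM to 33.5, 39.6 and 39.7 CPM, a change of 2.79 (SE 0.23, adjusted p = 8.1e-06). Usp18, which removes ISG15 and dampens interferon signalling, went from 3.63, 4.36 and 6.97 CPM to 26.8, 33.6 and 33.1 CPM, a change of 2.65 (SE 0.26, adjusted p = 3.2e-05). Oas2, an RNA sensor of the RNase L pathway, was at 6.79, 7.51 and 9.61 CPM against 1.09, 0.329 and 1.06 CPM, and Irf7, a transcription factor of the response, changed by 1.46 (SE 0.26, adjusted p = 0.002).

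Genes that sense nucleic acids in the cytosol did not move one way. Of 17 tested 7 rose (41.2%, against 11.0% of all genes) and 5 fell (29.4%, against 16.5%), with a median of 0.07. Without unirradiated replicate 3, 5 rose and 3 fell. Ddx58, the RNA sensor RIG-I, rose from 29, 31 and 25.5 CPM to 54.2, 60.7 and 60.3 CPM, a change of 1.03 (SE 0.17, adjusted p = 0.001). Zbp1, a sensor of Z-form nucleic acids, changed by 1.58 (SE 0.24, adjusted p = 6.8e-04) and Ifi204, a DNA-binding member of the p200 family, by 1.76 (SE 0.30, adjusted p = 0.001). Tmem173, which encodes the adaptor STING, fell from 70.7, 70.1 and 54.7 CPM to 40.2, 41.6 and 41.4 CPM, a change of -0.67 (SE 0.18, adjusted p = 0.015). The ribonuclease H2 subunit genes Rnaseh2a and Rnaseh2b fell by 1.08 and 0.97 on the log2 scale. Cgas, the DNA sensor upstream of STING, was at 1.68, 1.65 and 1.79 CPM against 1.43, 1.37 and 2.13 CPM, a change of 0.06 (SE 0.68, adjusted p = 0.95). At this level a change could not be resolved.

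Contractile genes of smooth muscle rose. Of 19 tested 15 rose (78.9%, against 11.0% of all genes), none fell and 4 did not pass, with a median of 1.51, and 16 rose without unirradiated replicate 3. Acta2 (ENSMUSG00000035783.8, chr19:34241090-34255590), smooth muscle actin, was at 12003, 10751 and 10716 CPM after irradiation and 3732, 2836 and 3763 CPM without it. Every irradiated library exceeded the highest unirradiated value by a wide margin, and the change was 1.7 (SE 0.16, adjusted p = 1.8e-05). Myh11, smooth muscle myosin, went from 94.3, 111 and 67.9 CPM to 824, 654 and 650 CPM, a change of 2.96 (SE 0.24, adjusted p = 7.3e-06). Cnn1, calponin, went from 220, 170 and 227 CPM to 1291, 1111 and 1044 CPM, a change of 2.48 (SE 0.27, adjusted p = 7.1e-05). Tagln, the actin-binding transgelin, went from 2211, 1650 and 2011 CPM to 7272, 6509 and 6350 CPM, a change of 1.78 (SE 0.16, adjusted p = 1.5e-05). The regulators and fibre genes Lmod1, Tpm1, Cald1, Actg2 and Myl9 changed by 2.54, 1.42, 1.12, 2.3 and 1.5. Smooth muscle and pericyte genes are shared with activated fibroblasts. The pericyte marker sum was 1080 to 1290 CPM in irradiated and 777 to 1420 CPM in unirradiated libraries. Most of this sum came from Pdgfrb and Postn. Of the 10 members 1 rose, which was Postn (10%, near the 11.0% of all genes), and 3 fell (30%, against 16.5%). Their median log2 change was -0.63. Kcnj8 and Rgs5 were lower in every irradiated library than in every unirradiated one.

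Targets of TGF-beta and of the mechanosensitive factors YAP and TAZ were also higher, with 14 of 27 risen (51.9%, against 11.0% of all genes), 3 fallen (11.1%, against 16.5%) and a median of 0.95, and 15 risen and 2 fallen without unirradiated replicate 3. Ccn2, connective tissue growth factor, went from 331, 362 and 278 CPM to 2679, 2548 and 2327 CPM, a change of 2.96 (SE 0.17, adjusted p = 8.2e-07). Ankrd1, a nuclear YAP target, went from 43.3, 46.2 and 52 CPM to 404, 391 and 424 CPM, a change of 3.11 (SE 0.20, adjusted p = 1.5e-06). The kinase gene Lats2, which restrains YAP, changed by 2.16 (SE 0.24, adjusted p = 7.1e-05), the latency protein gene Ltbp2 by 1.36 (SE 0.16, adjusted p = 1.3e-04) and the BMP antagonist gene Grem1 by 1.18 (SE 0.27, adjusted p = 0.008). Among the ligands, Tgfb3 rose from 173, 185 and 187 CPM to 641, 532 and 499 CPM (1.62 (SE 0.17, adjusted p = 6.6e-05)), and Tgfb2 was at 16.8, 17.5 and 14.2 CPM against 10.4, 16.8 and 3.14 CPM (adjusted p = 0.22). Id1, a BMP target, fell from 71.2, 67.7 and 99.1 CPM to 52.8, 42.7 and 44.9 CPM, a change of -0.76 (SE 0.17, adjusted p = 0.006).

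Matrix genes changed in both directions. Of 50 tested 15 rose (30%, against 11.0% of all genes) and 16 fell (32%, against 16.5%). The median was -0.04 (0.41 on the log2(TPM + 1) scale, against 0.32 over all genes, and 0.15 without unirradiated replicate 3). With unirradiated replicate 3 left out, 14 rose and 13 fell. Crosslinking and matricellular genes were among those that rose. Lox and Loxl2, lysyl oxidases, went from 602, 443 and 416 CPM to 1152, 1075 and 1149 CPM and from 330, 387 and 391 CPM to 790, 854 and 706 CPM, with changes of 1.21 and 1.09. Postn, periostin, went from 73.6, 106 and 35.9 CPM to 403, 389 and 282 CPM, a change of 2.32 (SE 0.35, adjusted p = 6.7e-04). Fbln2, fibulin-2, rose by 1.33 (adjusted p = 7.1e-05) while its relative Fbln1 fell, as given above. Eln, elastin, fell from 403, 468 and 335 CPM to 141, 123 and 78 CPM, a change of -1.82 (SE 0.40, adjusted p = 0.006). Col5a3 and Lama4 changed by -1.49 and -1.07. The main fibrillar collagen genes did not pass. Col1a1 was at 7752, 6272 and 6322 CPM against 7836, 7945 and 6323 CPM, a change of -0.12 (SE 0.21, adjusted p = 0.69) whose sign was positive on the TPM scale (0.31). Col3a1 was at 7767, 6968 and 7688 CPM against 11570, 14952 and 6396 CPM, a change of -0.55 (SE 0.40, adjusted p = 0.31). Fn1, fibronectin, was at 7374, 6900 and 6618 CPM against 5931, 7134 and 4081 CPM, a change of 0.29 (SE 0.21, adjusted p = 0.33).

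**Figure D3:**
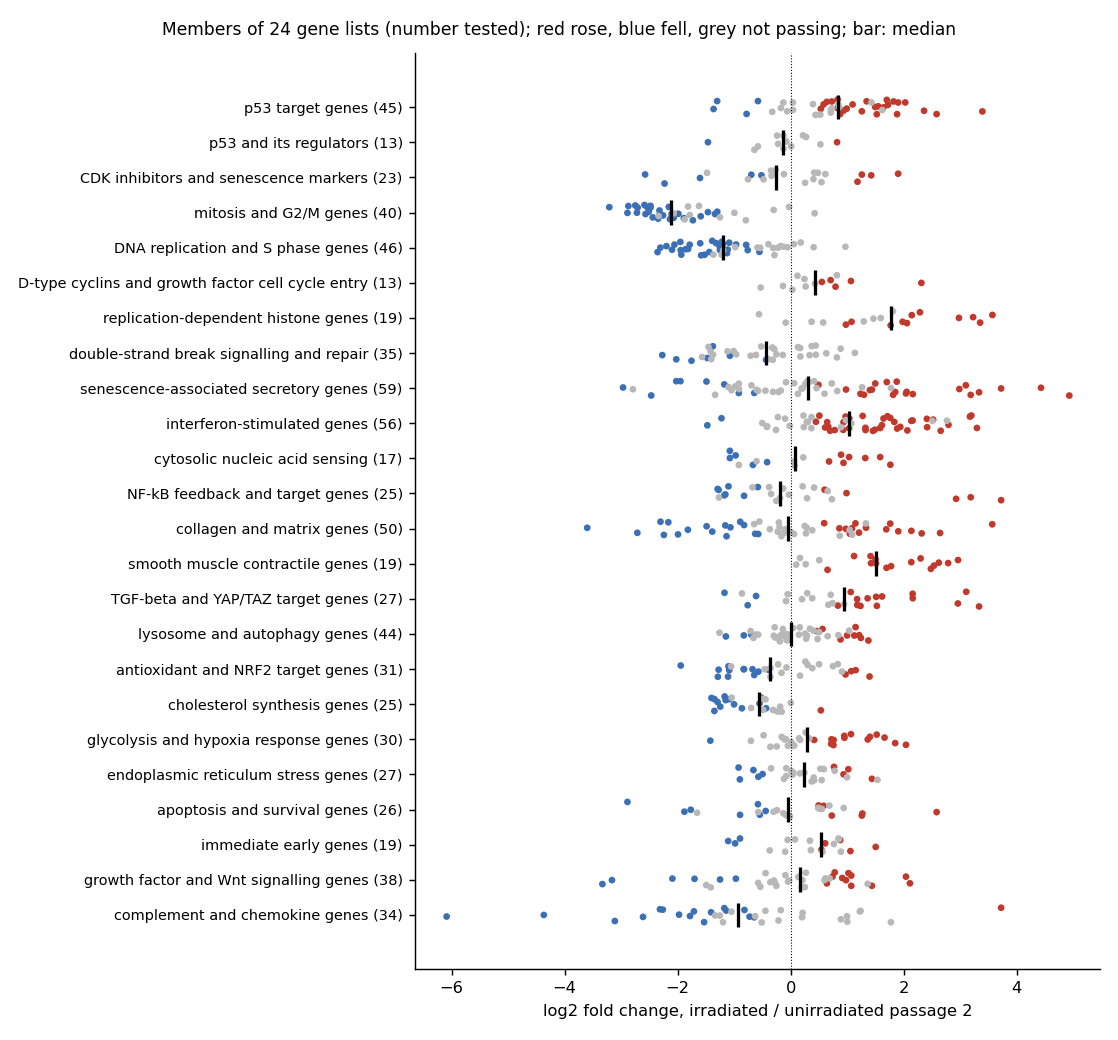
Each point is a tested member of 1 of 24 gene lists, placed by its log2 fold change (irradiated over unirradiated passage 2, x axis); red members rose, blue fell, grey did not pass, and the black bar is the list's median. The mitosis and replication lists lie mostly left of 0, and the interferon-stimulated, smooth muscle and p53 target lists mostly right of it.

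Complement and chemokine genes were lower. Of 34 tested 16 fell (47.1%, against 16.5% of all genes), 1 rose (2.94%, against 11.0%) and 17 did not pass, with a median of -0.93, and 14 fell without unirradiated replicate 3. Clu (ENSMUSG00000022037.14, chr14:65968483-65981547), the secreted chaperone clusterin, was at 59.7, 37 and 79.4 CPM after irradiation and 1296, 799 and 1539 CPM without it. No irradiated library reached 100 CPM and no unirradiated library was under 700 CPM, a change of -4.37 (SE 0.39, adjusted p = 1.4e-05). C3, the central complement component, went from 1636, 991 and 2350 CPM to 191, 135 and 250 CPM, a change of -3.11 (SE 0.42, adjusted p = 2.9e-04). C4b went from 863, 602 and 1599 CPM to 159, 148 and 194 CPM, a change of -2.61 (SE 0.45, adjusted p = 0.001). The initiating proteases C1ra and C1s1 changed by -1.53 and -1.41. Ccl11, the eosinophil chemokine, went from 44.2, 46.1 and 39.4 CPM to 7.05, 10.5 and 8.55 CPM, a change of -2.31 (SE 0.27, adjusted p = 1.0e-04). Ccl19, a lymphoid chemokine gene, was at 0.232, 0.496 and 0.168 CPM against 18.8, 5.23 and 38.4 CPM, a fitted change of -6.09. It held 36 counts over the 3 irradiated libraries. Of the 37 genes listed 3 were under the filter on low counts. Members that passed it only through the group where they are high had to differ, so the count of 16 describes the 34 tested. The unirradiated values of C3, C4b and Ccl19 were highest in replicate 3, and all 3 genes passed without it. Cxcl14 went the other way in its values, at 2745, 2944 and 2172 CPM against 1361, 1514 and 1049 CPM, but did not pass (adjusted p = 0.095). The levels of macrophage and endothelial markers in the same libraries are given below, and their part in the complement result was not tested.

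Cholesterol synthesis genes were lower, with 13 of 25 fallen (52%, against 16.5% of all genes), 1 risen (4%, against 11.0%) and a median of -0.55, and 10 fell without unirradiated replicate 3. Insig1, a sterol sensor gene, went from 79.8, 83.1 and 94.6 CPM to 29.9, 35 and 32.6 CPM, a change of -1.4 (SE 0.16, adjusted p = 8.6e-05). Hmgcs1, an early enzyme of the pathway, went from 56.1, 60.5 and 83.2 CPM to 36.2, 38.6 and 35.1 CPM, a change of -0.86 (SE 0.18, adjusted p = 0.005). Fdps, Acat2, Mvd and Tm7sf2 changed by -1.35, -1.24, -1.0 and -1.17.

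Among glycolysis and hypoxia genes more rose than fell, with 14 of 30 risen (46.7%, against 11.0% of all genes), 1 fallen (3.33%, against 16.5%) and a median of 0.30, and the same counts without unirradiated replicate 3. Slc2a1, the glucose transporter GLUT1, went from 158, 167 and 101 CPM to 403, 349 and 372 CPM, a change of 1.4 (SE 0.20, adjusted p = 4.8e-04). Hk2, hexokinase 2, went from 39.2, 46.3 and 33 CPM to 84.2, 85 and 79.5 CPM, a change of 1.07 (SE 0.14, adjusted p = 3.0e-04). Ero1l, a hypoxia-responsive oxidase gene of protein folding, changed by 1.66 (SE 0.14, adjusted p = 1.1e-05), and Hif1a, the oxygen-regulated transcription factor, by 1.36 (SE 0.18, adjusted p = 3.0e-04). Ldha and Pgk1, glycolytic enzymes, changed by 0.76 and 0.42.

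Among antioxidant genes more fell than rose. Of 31 tested 4 rose (12.9%, near the 11.0% of all genes) and 12 fell (38.7%, against 16.5%). The median was -0.36 (0.12 on the log2(TPM + 1) scale, against 0.32 over all genes). Without unirradiated replicate 3, 3 rose and 9 fell. Hmox1, heme oxygenase 1, rose from 253, 256 and 197 CPM to 649, 548 and 661 CPM, a change of 1.4 (SE 0.28, adjusted p = 0.003), and Nqo1, a quinone reductase gene, changed by 1.15 (SE 0.24, adjusted p = 0.005). The glutathione transferase gene Gstm1 fell from 277, 191 and 430 CPM to 76, 75.8 and 81.4 CPM, a change of -1.95 (SE 0.29, adjusted p = 5.5e-04). Of 44 lysosome and autophagy genes 9 rose (20.5%, against 11.0% of all genes) and 3 fell (6.82%, against 16.5%). Their median was 0.00 (0.45 on the log2(TPM + 1) scale, against 0.32 over all genes), and 7 rose and 1 fell without unirradiated replicate 3. Ctsk, a collagen-degrading protease gene, rose from 56.3, 58.7 and 59.6 CPM to 135, 124 and 128 CPM, a change of 1.15 (SE 0.21, adjusted p = 0.002). Lamp1, a lysosomal membrane protein gene, was at 798, 769 and 817 CPM against 377, 499 and 152 CPM, a change of 1.21 (SE 0.39, adjusted p = 0.036). Unirradiated replicate 3 was its lowest value, and it did not pass without that library (adjusted p = 0.084).

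Of 27 endoplasmic reticulum stress genes 4 rose (14.8%) and 5 fell (18.5%), shares near the 11.0% and 16.5% of all genes. Of 26 apoptosis and survival genes 6 rose (23.1%, against 11.0%) and 7 fell (26.9%, against 16.5%). Of 19 immediate early genes 5 rose (26.3%, against 11.0%) and 3 fell (15.8%, near 16.5%). Of 38 growth factor and Wnt signalling genes 11 rose (28.9%, against 11.0%) and 6 fell (15.8%, near 16.5%), with a median of 0.17. Without unirradiated replicate 3 these counts were 4 and 2, 5 and 5, 4 and 2, and 10 and 5. Among the last, the Wnt ligand gene Wnt2, a marker of lung mesenchyme, went from 16.3, 18.6 and 16.3 CPM to 1.68, 1.86 and 1.54 CPM, a change of -3.33 (SE 0.59, adjusted p = 0.002). The secreted Wnt antagonist gene Sfrp2 went from 100, 170 and 52 CPM to 9.11, 11.5 and 15.4 CPM, a change of -3.16 (SE 0.53, adjusted p = 0.001).

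Marker genes were used to check the labelled cell type. The resident lung fibroblast markers, 26 genes including Col1a1, Pdgfra and Dcn, had reads in all 6 libraries, and summed to 24100 to 27800 CPM after irradiation and 24100 to 36900 CPM without it. Most of this sum came from Col1a1, Col1a2, Col3a1 and Vim. Of these 26, 1 rose (3.85%, against 11.0% of all genes) and 9 fell (34.6%, against 16.5%). The median was -0.29 (0.14 on the log2(TPM + 1) scale, against 0.32 over all genes), and 2 rose and 7 fell without unirradiated replicate 3. Ces1d, Wnt2, Dpt and Inmt were lower in every irradiated library than in every unirradiated one. Macf1, Lum and Dcn were higher in every irradiated library. Dpt was at 4.03, 2.74 and 3.6 CPM against 35, 24.5 and 38.5 CPM. Endothelial markers were present and lower after irradiation: 12 of 19 fell (63.2%, against 16.5% of all genes) and none rose, also without unirradiated replicate 3, and their sum was 366 to 616 CPM against 1010 to 1710 CPM. Macrophage markers summed to 1550 to 2760 CPM against 2610 to 4220 CPM, with 5 of 23 fallen (21.7%, near the 16.5% of all genes), 4 without unirradiated replicate 3, and none risen. Lyz2 alone was at 1360, 940 and 1610 CPM against 1780, 1490 and 2000 CPM. Adgre1 and Ptprc were higher in every irradiated library than in every unirradiated one, and Marco and Chil3 were among those lower. Epithelial markers summed to 7.93 to 10.0 CPM against 22.5 to 41.1 CPM, and 9 of the 20 were under the filter on low counts. Members that passed it only through the unirradiated group had to differ, so no count of calls is given for them. None of the 7 mesothelial or 4 lymphocyte markers tested passed, and 3 of 10 and 9 of 13 were under the filter. Mesothelial markers summed to 43.4 to 51 CPM against 40.1 to 54.4 CPM. Lymphocyte markers summed to 4.27 to 5.37 CPM against 3.72 to 6.08 CPM. The T cell gene Cd3e was at 0 CPM in all 6 libraries, while the lymphocyte markers Lck, Trac and Cd4 had reads in each. Both groups therefore held RNA of more than 1 cell type, and the part of this mixture in the gene changes above was not tested.

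**Figure D4:**
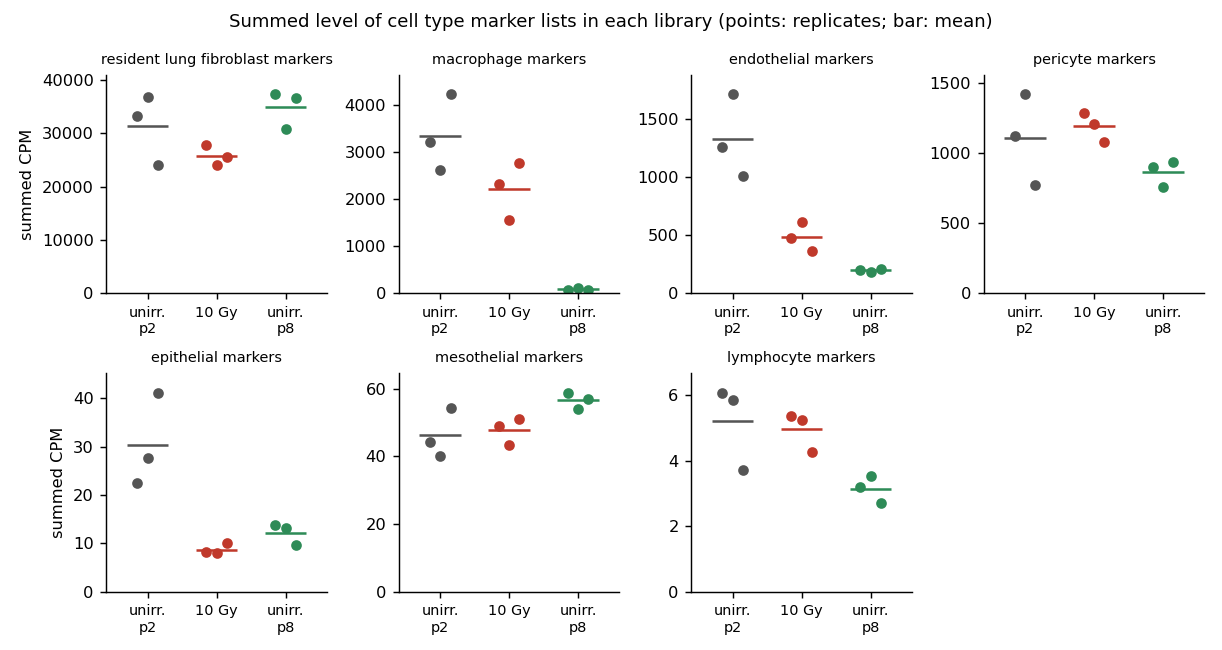
Each panel shows the summed CPM of a cell type marker list (y axis, from 0) in each library of unirradiated passage 2, irradiated and unirradiated passage 8 Atm+/+ cells; points are replicates and the bar their mean. Endothelial sums are 366 to 616 CPM after irradiation and 1010 to 1710 CPM in unirradiated passage 2 cells, and macrophage sums are lowest at passage 8.

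Unirradiated Atm+/+ cells at passage 8 were set beside the irradiated cells, since the design holds both serially passaged and irradiated cells. The irradiated libraries differed from passage 8 in 1252 of 18167 genes (6.89%), with 781 higher (4.30%) and 471 lower (2.59%) by the same fit. These counts depend strongly on the fit. Fits of only the 2 groups and of 13 libraries called several times as many genes, and leaving out 1 library gave fewer, as given at the end. A gene that did not pass here was therefore not shown to be alike in irradiated and passage 8 cells. The contrast of irradiated against passage 8 cells is also the difference between the change with irradiation and the change with passage, because both are measured from the same passage 2 libraries. Cdkn1a was at 409, 371 and 382 CPM at passage 8, between the other groups, and the irradiated cells were higher by 1.29 on the log2 scale (SE 0.13, adjusted p = 5.5e-05). Cdkn2a was at 53.1, 37.4 and 52.3 CPM at passage 8, above every irradiated value, a difference of -2.16 (SE 0.42, adjusted p = 0.006). Mki67 was at 20.1, 26.5 and 27 CPM at passage 8, and the irradiated cells were lower by a log2 difference of -2.07 (SE 0.18, adjusted p = 1.8e-05). Of the 40 mitosis genes 21 were lower after irradiation than at passage 8, against 2.59% of all genes, and none higher. Of 56 interferon-stimulated genes 18 were higher, against 4.30% of all genes, and none lower. Isg15 was at 105, 67.2 and 103 CPM at passage 8 and differed by 1.22 (SE 0.22, adjusted p = 0.004). None of the 19 smooth muscle genes passed in this contrast, where their median log2 difference was 0.38. Slc2a1, at 668, 642 and 682 CPM at passage 8, was lower after irradiation, by a log2 difference of -0.83 (adjusted p = 0.021).

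The 5 genes that the naming rule takes as highest over passage 8 include macrophage genes. C1qa, C1qb and C1qc, chains of complement C1q, Ctss, a lysosomal protease gene, and Pf4, a platelet and macrophage chemokine gene, were higher after irradiation by log2 differences of 6.73, 6.92, 6.8, 6.78 and 6.75. C1qb was at 137, 75.7 and 175 CPM in irradiated, 262, 128 and 499 CPM in unirradiated passage 2 and 0.689, 1.59 and 0.933 CPM in passage 8 libraries. Of the macrophage markers 21 of 23 were higher after irradiation than at passage 8, and of the endothelial markers 16 of 19, against 4.30% of all genes. Their sums at passage 8 were 70.2 to 113 CPM and 185 to 211 CPM. In each passage 8 library 1 or 2 of the macrophage markers were at 0 counts. Members that passed the filter on low counts only through the groups where they are high had to differ, so these counts of calls describe the members tested. In the other direction Clca3a1, Gpc3, a heparan sulfate proteoglycan gene, and Lpl, lipoprotein lipase, differed by -3.75, -3.04 and -2.98, Ces1d by -3.94 and the kinetochore gene Nuf2 by -2.56. How far the fall of these other cell types with passage enters the differences between irradiated and passage 8 cells was not tested.

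Gene length ran along with the fold changes. In 5 groups of tested genes of equal number, ordered from shortest to longest, the median log2 change was -0.31, -0.17, -0.02, 0.06 and 0.20. The share of genes that rose went from 7.2% in the shortest group to 16.6% in the longest, and the share that fell from 24.5% to 10.0%. With unirradiated replicate 3 left out, the medians of the shortest and longest groups were -0.29 and 0.18. The part of this trend in the changes of the gene groups above was not tested.

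**Figure D5:**
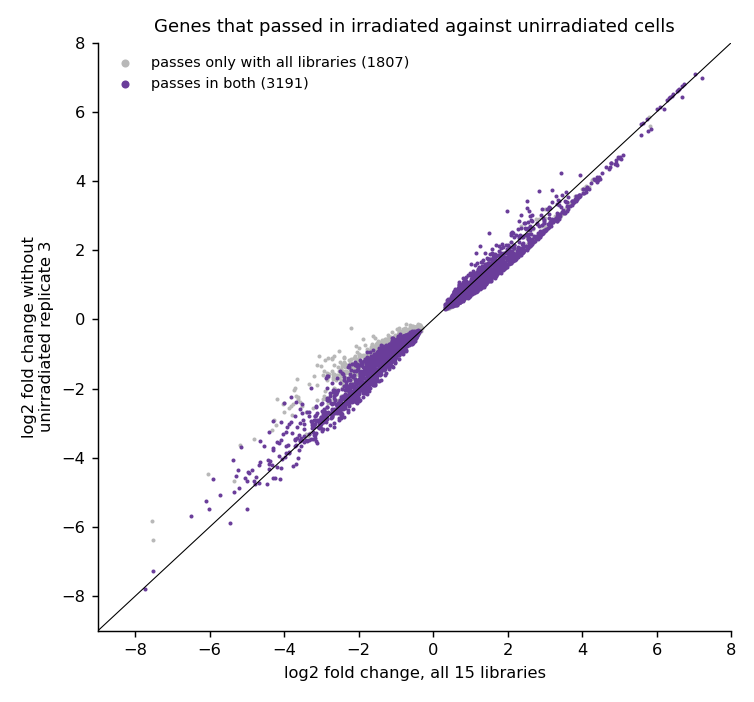
Each point is 1 of the 4998 genes that passed with all libraries, with its log2 fold change in that fit on the x axis and in the fit without unirradiated replicate 3 on the y axis; purple genes passed in both (3191) and grey genes in the first alone, and the line marks equal values. All points lie in the quadrants of equal sign.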

How the data were processed

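RNA of 15 libraries was measured by RNA-seq (TruSeq RNA, total RNA, per the labels' protocols), and 6 of them are compared here. The authors deposited raw read counts for 48440 genes, made with featureCounts on mm10 per the submitters' processing notes, which also name SAMtools 1.3.1. They also deposited TPM for 48082 genes, used as an alternative scale. A deposited TPM table of a subset of genes was not used. The aligner, strandedness and annotation release are not given in the sources, and overlapping and antisense genes cannot be told apart. GENCODE vM21 (GRCm38) gave a symbol for 48058 gene IDs and none for 382.

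Genes passed edgeR 4.0.16's filterByExpr by group, were scaled by TMM and entered 1 robust quasi-likelihood fit of all 15 libraries in R 4.3.3, with a mean per group and Benjamini-Hochberg adjustment over 18167 genes. All groups share its estimate of spread. An SE is the size of the log2 fold change over the square root of the F statistic. Replicates are fibroblast strains per the design text. The p-values measure the spread between libraries of the same group, estimated over all 15 libraries. That spread holds technical differences, such as those of libraries of low complexity, as well as differences between strains. Irradiated and unirradiated libraries were not treated as paired. In simulated counts for this comparison over 17879 genes the fit recovered 45 of 100 genes changed by a log2 of 1 and 86 of 100 changed by a log2 of 2, with 6 false calls among 137. The changed genes were not drawn from those at low levels, and far fewer genes changed than were called here. Each gene had the same spread in every library, with none of low complexity. The simulation therefore cannot show the effect of unirradiated replicate 3.

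The genes named are up to 15 each way with the largest change among those passing with and without unirradiated replicate 3, with a mean log2 CPM of 2 or more, no overlap and no predicted symbol. Added to them are key members and up to 5 further passing members of each list, Atm and Trp53, and up to 5 each way against passage 8. Some genes that the rule takes are not reported here. Lists got no test of their own. The members and lists were chosen with earlier results of these data known. Alternatives were DESeq2 1.42.0, its size factors, no filter, a strict filter (1 CPM in 3 libraries and a mean count of 50), only the groups compared, limma 3.58.1 on log2(TPM + 1) and log2(TPM + 0.1) at 0.5 TPM or more in 3 libraries, leaving out each library, 13 libraries without the pair of low complexity, and the replicate number as a block.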

Additional observations from a re-analysis of the deposited data

How the results depend on the processing

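For genes higher after irradiation (2003) the count was 3008 with DESeq2, 4062 and 3233 with limma on log2(TPM + 1) and log2(TPM + 0.1), and 4244 in the fit of 13 libraries. It was 3443 in a fit of only the 2 groups without unirradiated replicate 3, which was chosen after seeing the data. For genes lower after irradiation (2995) it was 1592 and 1334 on the TPM scales. Leaving out 1 library at a time gave 1256 to 3639 higher and 1377 to 3307 lower genes. The higher count moved by over 1.5 times without irradiated replicate 1 (1300), 2 (1324) or 3 (1323) and without unirradiated replicate 1 (1256) or 2 (3639). The lower count did so without irradiated replicate 1 (1377), 2 (1379) or 3 (1433) and without unirradiated replicate 3 (1799). For genes higher after irradiation than at passage 8 (781), DESeq2 called 1247, the fit of only the 2 groups 3149 and the fit of 13 libraries 2439. For genes lower after irradiation than at passage 8 (471), these last 2 fits called 3065 and 2271, and the TPM scales 215 and 199. Leaving out 1 library gave 490 to 603 higher, with the count moving by over 1.5 times without passage 8 replicate 1 (491) or 2 (490), and 188 to 310 lower, with each of the 6 omissions moving it that far. The cause was not tested. The median log2 change over all genes was 0.32 and 0.45 on the TPM scales.

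The replicate numbers were not taken as pairs, because the labels do not give the pairs. Same-numbered libraries deviated from their group means with correlations of -0.0188, 0.194 and 0.128. Irradiated replicates 2 and 3 correlated best with the unirradiated library of their own number. Irradiated replicate 1 correlated best with unirradiated replicate 3 (0.0618). Whether same-numbered libraries share a strain was not tested. With the replicate block, the counts of genes higher after irradiation and genes lower after irradiation were 1530 and 2204, and those of genes higher after irradiation than at passage 8 and genes lower after irradiation than at passage 8 were 604 and 319.

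Of the 146 named genes past the threshold, 131 to 146 kept their call in each alternative, fewest on log2(TPM + 0.1). None of the 146 changed sign in any of the 16 alternatives. On log2(TPM + 1) and log2(TPM + 0.1), genes that did not pass changed sign, namely Col1a1 (0.31 and 0.31), Pdgfra (0.16 and 0.16) and Trp53 (0.39 and 0.40). With single libraries left out, Col1a1 ran from -0.16 to 0.00155, Cgas from -0.0225 to 0.35, Trp53 from -0.24 to 0.16 and Atm from -0.24 to 0.82, and Atm was -0.00204 with DESeq2 size factors. The depth of the smallest library, 23.6 M counts, limits what can be said of genes near 1 CPM such as Cgas and Atm.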
